A study of Mus musculus with 11 samples.

Results

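Glutathione S-transferases join the tripeptide glutathione to reactive, electrophilic compounds, so that these can be bound, exported or broken down. The mu and alpha classes are soluble enzymes that work as dimers, and each class is encoded by a family of similar genes that arose by duplication. In the testis, glutathione enzymes are known for handling peroxides, lipid aldehydes and xenobiotics in both the germ cells and the somatic cells around them. Irp1 and Irp2 are RNA-binding proteins that regulate the mRNAs of iron uptake, storage and export, and Irp1 also acts as a cytosolic aconitase.

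The 10 genes described here were the 7 mu class members Gstm1 to Gstm7 and the alpha class members Gsta2, Gsta3 and Gsta4, taken by name from the 24411 genes of the count table. They were measured by poly(A) RNA sequencing of whole testis from mice aged 20 weeks. The samples were 4 wild-type mice (WT) of the C57Bl/6J strain, 4 mice with a global knockout of Irp1 (Irp1-/-, gene Aco1) and 3 mice with a global knockout of Irp2 (Irp2-/-, gene Ireb2). Both deletions are present in all cells of the body, so each group reports on a whole-animal loss and not on a loss in a single testis cell type. The Irp1-/- line was kept on the C57Bl/6J background, while the strain of the Irp2-/- mice is not given in the sources used here. The question the genotypes address is how loss of either iron regulatory protein alters testis RNA.

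Each sample held 15902473 to 22451417 counted reads. Levels are given as CPM, the counts of a gene scaled to a common library size (TMM), and 1 count corresponded to 0.044 to 0.063 CPM. Within genotypes no library was a copy of another, since the chi-square over degrees of freedom was at least 1.97 in each of the 15 replicate pairs. The targeted gene Aco1 had a level of 8.60 ± 0.636 CPM in Irp1-/- against 11.8 ± 1.37 CPM in WT testes (SD, n = 4 each), so counts on the gene remained in the knockout (edgeR quasi-likelihood test with Benjamini-Hochberg adjustment, adjusted p = 0.0158). Ireb2 fell to 62.1 ± 0.803 CPM (SD, n = 3) with the Irp2 knockout, from 139.5 ± 5.91 CPM (SD, n = 4) in WT (edgeR, adjusted p = 2.8e-13). Markers of Leydig cells, Sertoli cells and elongating spermatids were present in every sample, with summed levels of at least 803, 1482 and 21799 CPM. Of 12 epididymis markers, Lcn5 and Lcn10 were at 0 and 6, these included, had at most 3 counts in every sample. The list was not absent as a whole. Its summed level was 185 to 207 CPM in WT, 173 to 212 CPM in Irp1-/- and 167 to 191 CPM in Irp2-/- testes.

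The mu class genes lie side by side on chromosome 3 (mm10), from 107895821 to 108044894, over 149 kb. Gstm5 is on the forward strand and the other 6 are on the reverse strand. Among the alpha class genes, Gsta4 (78182774 to 78209349) and Gsta2 (78331018 to 78355788) lie on chromosome 9, 23.3 and 23.4 Mb from Ireb2 on the same chromosome, and Gsta3 lies on chromosome 1 (21240589 to 21265661). Each mu class transcript used here has 8 exons and each alpha class transcript has 7.

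How alike the genes are in sequence bears on how well short reads can be told apart. A window of 60 coding bases in exon 4 is the longest stretch that Gstm1 and Gstm2 share without a difference, and it is shown for all 7 mu class genes, 5′ to 3′ on the coding strand, with the bases that differ from Gstm1 in capitals. The window is coding base 193 to 252 (202 to 261 in Gstm5), which is chr3:108016526-108016585 in Gstm1, chr3:107985254-107985313 in Gstm2, chr3:107930480-107930539 in Gstm7 and chr3:107897303-107897362 in Gstm5. All but the Gstm5 window are read from the reverse strand.
Gstm1: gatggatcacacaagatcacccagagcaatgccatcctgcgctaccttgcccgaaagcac
Gstm2: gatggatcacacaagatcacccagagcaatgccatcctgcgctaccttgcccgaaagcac
Gstm3: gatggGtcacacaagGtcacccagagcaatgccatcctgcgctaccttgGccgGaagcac
Gstm4: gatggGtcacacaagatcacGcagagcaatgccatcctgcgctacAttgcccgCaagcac
Gstm6: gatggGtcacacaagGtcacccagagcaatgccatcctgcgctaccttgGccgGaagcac
Gstm7: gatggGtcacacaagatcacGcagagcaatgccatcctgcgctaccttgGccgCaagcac
Gstm5: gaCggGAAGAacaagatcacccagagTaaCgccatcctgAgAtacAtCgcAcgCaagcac

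Gstm3, Gstm4, Gstm6 and Gstm7 each differed from Gstm1 at 4 of the 60 bases, and Gstm5 differed at 14. Over the whole coding sequence, Gstm1 and Gstm2 were 85.9% identical, while Gstm5 was 68.0% to 71.1% identical to the other mu class genes. Gstm5 was thus the least similar of the 7.

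Among the alpha class genes, Gsta2 has close copies in Gsta1 and Gm3776, which lie between Gsta4 and Gsta2 on chromosome 9. The first 60 coding bases, all in exon 2, are shown because Gsta2 and Gsta1 are identical there. Capitals mark bases that differ from Gsta2. The windows lie at chr9:78341857-78341916 (Gsta2, reverse strand), chr9:78232240-78232299 (Gsta1), chr9:78258712-78258771 (Gm3776), chr9:78198290-78198349 (Gsta4) and chr1:21249772-21249831 (Gsta3).
Gsta2: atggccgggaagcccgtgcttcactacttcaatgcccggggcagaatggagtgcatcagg
Gsta1: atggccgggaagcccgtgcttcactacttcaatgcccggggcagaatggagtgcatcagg
Gm3776: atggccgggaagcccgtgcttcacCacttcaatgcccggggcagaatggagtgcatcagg
Gsta3: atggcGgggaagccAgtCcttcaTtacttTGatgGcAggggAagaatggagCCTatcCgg
Gsta4: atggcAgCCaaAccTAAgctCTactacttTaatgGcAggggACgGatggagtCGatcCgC

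Gsta2 matched Gsta1 for its first 196 coding bases and was 97.6% identical to it over the coding sequence, whereas Gsta3 and Gsta4 were 75.1% and 66.6% identical to Gsta2. Reads were 50 bases long, so every 50-base word of each transcript was looked up in the transcripts of all other genes. For Gsta2, 64.2% of words were shared with another gene, against 28.8% for Gstm3, 23.1% for Gstm1, 11.8% for Gstm6 and 9.36% for Gstm2. Most shared words of Gstm1 were in Gstm2-ps1 (215 of 287), and most of those of Gstm2 were in Gm12499 (56 of 95). No word was shared for Gstm4, Gstm5, Gstm7, Gsta3 or Gsta4. Counts of Gsta2 are thus the least certain as a measure of a single gene, and the other end of a read pair can still place a shared read. Gsta1 had 3 and 6 counts in Irp1-/- replicates 6 and 7 and none in the other 9 samples. Gm3776 had 4 to 10 counts in the WT samples, 5 and 7 in Irp1-/- replicates 1 and 2, and none in Irp1-/- replicates 6 and 7 or in the Irp2-/- samples. All of these counts were small beside those of Gsta2, which lay between 148 and 239.

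**Figure D1:**
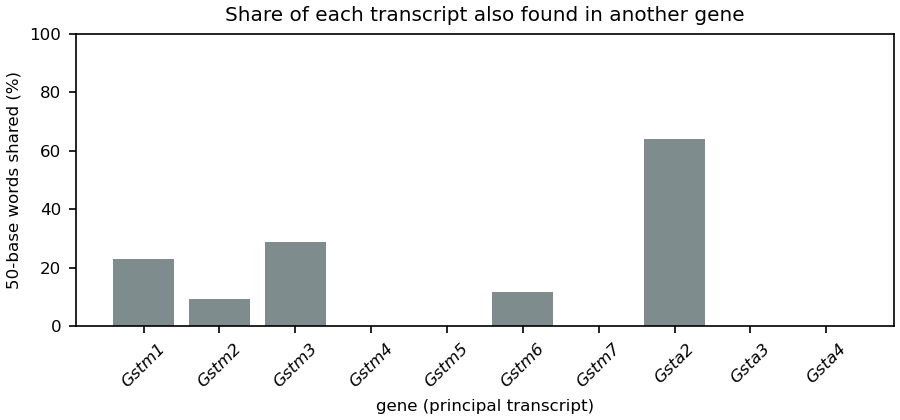
Share of the 50-base words of each principal transcript that also occur in a transcript of another gene (percent, bars from 0). Gsta2 has the highest share (64.2%), and 5 genes have no shared word.

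Per kilobase of exon, which allows levels of different genes to be compared, Gstm5 was the most abundant member in every genotype. It is a mu class enzyme best known from testis and brain. In WT testes its level was 1573 ± 44.9 CPM per kb (SD, n = 4), which was 7.56 times that of Gstm1, and it made up 78.3% ± 3.63 (SD, n = 4) of the summed level of the 10 genes per kb. Next in WT came Gstm1 with 208 ± 50.6 CPM per kb and Gstm2 with 119 ± 21.3 CPM per kb (SD, n = 4), a mu class enzyme known to conjugate aminochrome. The ranges over samples of these 3 genes did not overlap.

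Lower in the order were Gsta4, which is known for conjugating the lipid aldehyde 4-hydroxynonenal, at 32.0 CPM per kb and Gstm7 at 29.2 CPM per kb in WT, with ranges that overlapped. Gstm6 followed at 22.2 CPM per kb, then Gsta3 at 13.6 CPM per kb and Gsta2 at 10.5 CPM per kb, and the ranges of the last pair overlapped in WT. Gsta3 is known in mice for detoxifying aflatoxin, and Gsta2 is an alpha class enzyme known for its induction by electrophiles. Gstm4 was low at 3.65 CPM per kb. The order of the mean levels was the same in Irp1-/- and in Irp2-/- testes. Gsta4 and Gstm7 also overlapped in Irp1-/-, and Gstm7 and Gstm6 overlapped in Irp2-/- testes.

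Gstm3 was at the limit of detection. It had 1, 0, 0 and 2 counts in WT replicates 1 to 4, 0, 2, 0 and 1 in Irp1-/- replicates 1, 2, 6 and 7, and 1, 0 and 1 in Irp2-/- replicates 1 to 3. A count of 0 allows up to 3 counts, or 0.133 to 0.188 CPM in these samples. It did not pass the filter on low counts, so 9 of the 10 genes were tested.

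**Figure D2:**
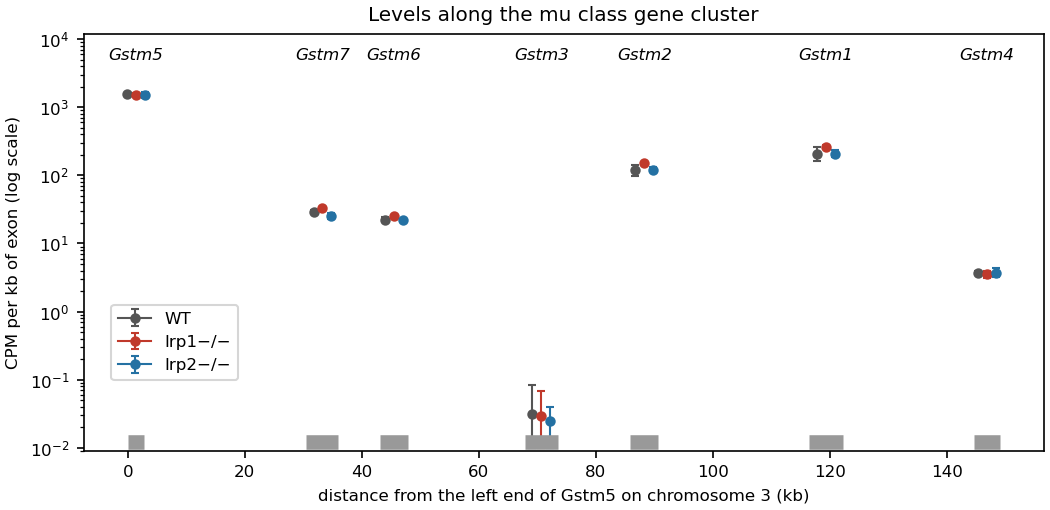
Mean level of the mu class genes in CPM per kb of exon (log scale) against distance from the left end of Gstm5 in kb, with bars from the lowest to the highest sample and grey blocks for the genes (bars of Gstm3 that reach 0 end at the lower edge of the axis). Gstm5 is near 1500 CPM per kb in each genotype, and neighbours differ widely, with Gstm3 below 0.1 CPM per kb.

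In Irp1-/- testes, 7 of the 9 tested genes had a higher fitted level than in WT, beside 49.7% of all genes, but no difference passed the test. The median log2 fold change of the 9 genes was 0.18, beside -0.00079 over all 16002 genes tested. None of the 9 had an adjusted p under 0.05 in edgeR or in DESeq2, where the background of called genes in edgeR was 1.02%. An unadjusted p under 0.05 with a higher level was found for 5 of the 9, Gstm2, Gstm6, Gstm7, Gsta2 and Gsta4, beside 6.69% of all genes. The Irp1-/- samples lay above all WT samples for Gstm2, Gstm6, Gstm7 and Gsta2, which is 4 of the 9, beside 3.37% of all genes. In whole testis RNA, fewer cells of a type and less RNA per cell cannot be told apart.

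The per-sample values show how the groups differed. Gstm1, a mu class enzyme that is abundant in liver, was 234, 219, 362 and 323 CPM in WT replicates 1 to 4. In Irp1-/- replicates 1, 2, 6 and 7 it was 378, 352, 354 and 361 CPM. WT replicates 1 and 2 were low, WT replicate 3 lay within the Irp1-/- range, and the groups overlapped. The log2 fold change was 0.34 (standard error 0.17, edgeR adjusted p = 0.518).

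Gstm2 was 124, 117, 168 and 160.4 CPM in WT replicates 1 to 4 and 184, 176, 181 and 187 CPM in Irp1-/- replicates 1, 2, 6 and 7. All Irp1-/- samples were higher, and again WT replicates 1 and 2 were the lowest. Its log2 fold change was 0.35 (standard error 0.13, edgeR adjusted p = 0.342). Gsta3 split in the same way, with 15.1, 15.6, 28.9 and 25.0 CPM in WT against 26.3, 29.2, 28.2 and 30.3 CPM in Irp1-/-, and the fitted change was 0.42 on the log2 scale (standard error 0.23, edgeR adjusted p = 0.545).

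The spread of these 3 genes was much wider in WT than in Irp1-/- testes. The coefficient of variation was 24.3% in WT and 3.26% in Irp1-/- for Gstm1, 17.9% and 2.70% for Gstm2, and 32.4% and 6.01% for Gsta3.

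Gstm6, Gstm7 and Gsta2 also had groups that did not overlap, and none of them was called in Irp1-/- against WT testes. Gstm6 was 25.3, 26.4, 28.3 and 29.7 CPM in WT and 32.3, 30.5, 31.2 and 30.5 CPM in Irp1-/- testes (log2 fold change 0.18, standard error 0.059, edgeR adjusted p = 0.167). Gstm7 was 41.5, 40.9, 45.3 and 42.5 CPM in WT and 50.3, 47.5, 46.2 and 47.2 CPM in Irp1-/- testes (log2 fold change 0.16, standard error 0.050, edgeR adjusted p = 0.123). The highest WT and the lowest Irp1-/- sample of Gstm7 were less than 1 CPM apart. Gsta2 was 8.61, 9.22, 9.77 and 8.99 CPM in WT and 12.5, 10.5, 9.99 and 11.8 CPM in Irp1-/- testes (log2 fold change 0.29, standard error 0.094, edgeR adjusted p = 0.168).

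The lipid aldehyde enzyme gene Gsta4 was 30.0, 28.0, 33.7 and 33.3 CPM in WT and 39.6, 31.5, 32.8 and 38.8 CPM in Irp1-/- testes, so the groups overlapped (log2 fold change 0.18, edgeR adjusted p = 0.338). Gstm5 and Gstm4 were the genes with a lower fitted level. Gstm5 was 1615, 1589, 1513 and 1550.2 CPM in WT and 1456, 1535, 1388 and 1598 CPM in Irp1-/- testes (log2 fold change -0.07, standard error 0.041, edgeR adjusted p = 0.508). Gstm4 lay between 6.01 and 6.72 CPM in WT and between 5.27 and 6.72 CPM in Irp1-/- testes (log2 fold change -0.04, edgeR adjusted p = 0.936).

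**Figure D3:**
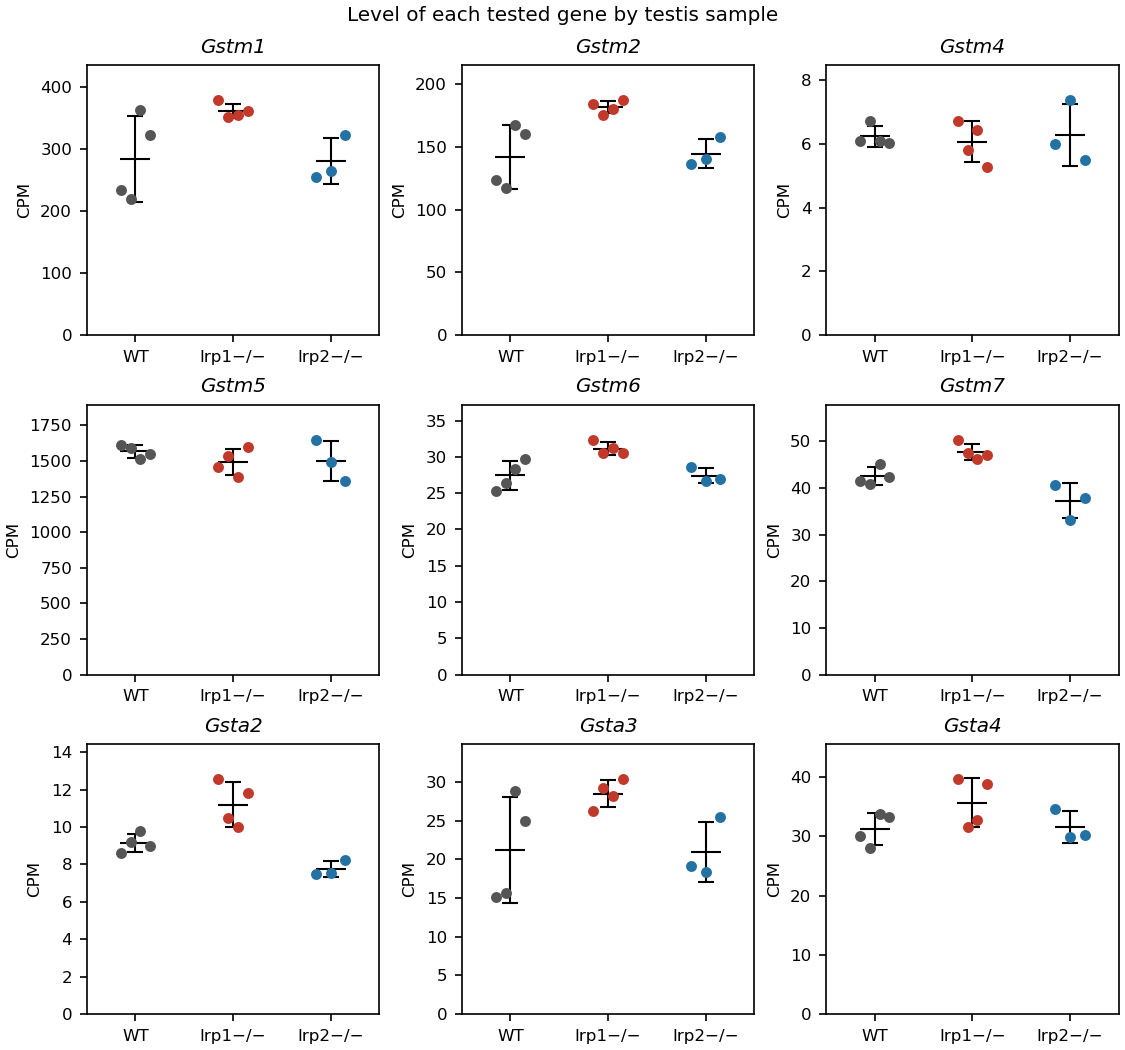
Level of the 9 tested genes in CPM (linear axes from 0) in each WT, Irp1-/- and Irp2-/- sample, with the mean and SD of each genotype (n = 4, 4 and 3) as black bars. WT samples of Gstm1, Gstm2 and Gsta3 fall into a low and a high pair, while the 4 Irp1-/- samples of these genes lie close together.

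In Irp2-/- testes the genes stayed close to WT, with a median log2 fold change of -0.02 beside 0.0033 over all 16154 genes tested. None of the 9 had an adjusted p under 0.05 in edgeR or in DESeq2, where the background in edgeR was 1.21%. An unadjusted p under 0.05 with a lower level was found for Gstm7 and Gsta2, 2 of the 9 genes, beside 4.74% of all genes. For these 2 genes the Irp2-/- samples also lay below all WT samples, beside 4.74% of all genes. The WT samples are the same as in the comparison with Irp1-/-, so the 2 comparisons are not independent. Since the strain of the Irp2-/- mice is not given, effects of the deletion and differences between mouse lines cannot be told apart against WT.

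Gsta2 was 7.49, 7.56 and 8.24 CPM in Irp2-/- replicates 1 to 3, just below the lowest WT sample (log2 fold change -0.23, standard error 0.10, edgeR adjusted p = 0.458). Gstm7 was 40.6, 33.2 and 37.9 CPM in Irp2-/- testes with the highest sample less than 1 CPM below the lowest WT sample (log2 fold change -0.19, standard error 0.067, edgeR adjusted p = 0.266). In the comparisons with WT, Gstm7 was the only member whose edgeR adjusted p went under the threshold when a sample was left out, at 0.0498 without Irp2-/- replicate 1. For the remaining 7 genes the fitted log2 fold changes lay between -0.06 (Gstm5) and 0.03 (Gstm2). For Gstm1 and Gsta3 the standard errors of 0.22 and 0.30 leave room for differences as large as those between the knockouts.

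The direct comparison sets the knockout lines side by side, and the strain of the Irp2-/- mice is not given. Effects of the deletions and differences between the lines therefore cannot be told apart. The comparison tests whether levels differ between Irp1-/- and Irp2-/- testes. Of the 9 genes, 5 passed it, and all 5 were higher in Irp1-/- than in Irp2-/- testes, where the background was 4.69% called in either direction and 2.92% called higher. They were the mu class genes Gstm1, Gstm2 and Gstm7 and the alpha class genes Gsta2 and Gsta3, with folds of 1.25 to 1.44. Samples did not overlap for these 5 genes and for Gstm6, beside 7.89% of all genes with all Irp1-/- samples higher. The median log2 fold change of the 9 genes was 0.33, beside -0.0019 over all 16281 genes tested.

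Gstm1 was 254, 264 and 323 CPM in Irp2-/- replicates 1 to 3, all below the lowest Irp1-/- sample at 352 CPM. Irp2-/- replicate 3 came closest. The log2 fold change was 0.36 (standard error 0.065, edgeR adjusted p = 0.00236), a fold of 1.29. Gstm2 followed the same order, with 136, 140.3 and 158 CPM in Irp2-/- testes, and its fitted change was 0.33 on the log2 scale (standard error 0.053, edgeR adjusted p = 5.4e-04). The ratio of Gstm1 to Gstm2 in CPM hardly moved, at 1.98 ± 0.134 in WT (SD, n = 4), 1.99 ± 0.0549 in Irp1-/- (SD, n = 4) and 1.93 ± 0.0968 in Irp2-/- testes (SD, n = 3).

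For Gsta3 the Irp2-/- samples were 19.1, 18.3 and 25.5 CPM, and replicate 3 lay less than 1 CPM below the lowest Irp1-/- sample. Its log2 fold change was 0.44 (standard error 0.094, edgeR adjusted p = 0.00884). Gsta2 had the largest difference of the 9, a log2 fold change of 0.52 (standard error 0.10, edgeR adjusted p = 0.00389), with the Irp2-/- samples at 7.49 to 8.24 and the Irp1-/- samples at 9.99 to 12.5 CPM. For Gstm7 the Irp2-/- samples at 33.2 to 40.6 CPM lay below the Irp1-/- samples at 46.2 to 50.3 CPM, and the log2 fold change was 0.35 (standard error 0.065, edgeR adjusted p = 0.00172). Gstm7 and Gsta2 were the members in which the Irp1-/- mean lay above and the Irp2-/- mean below WT by more than 10%.

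The remaining 4 tested genes did not pass. Gstm6 was 28.6, 26.6 and 26.9 CPM in Irp2-/- testes, all below the Irp1-/- samples (log2 fold change 0.18, standard error 0.061, edgeR adjusted p = 0.103). Gsta4 was 34.6, 29.8 and 30.2 CPM (log2 fold change 0.17, standard error 0.082, edgeR adjusted p = 0.333), Gstm5 was 1647, 1492 and 1360.3 CPM (-0.01, standard error 0.061) and Gstm4 was 5.98, 7.36 and 5.49 CPM (-0.05, standard error 0.13).

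These calls depended on the spread assumed. With all 11 samples in one fit, so that WT samples also set the spread, 2 of the 9 genes were called, Gsta2 and Gstm7, and the edgeR adjusted p of Gstm1, Gstm2 and Gsta3 was 0.363, 0.217 and 0.398 with fold changes that stayed within 0.01 of those above. Without Irp2-/- replicate 2 the adjusted p of Gsta3 was 0.0702.

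**Figure D4:**
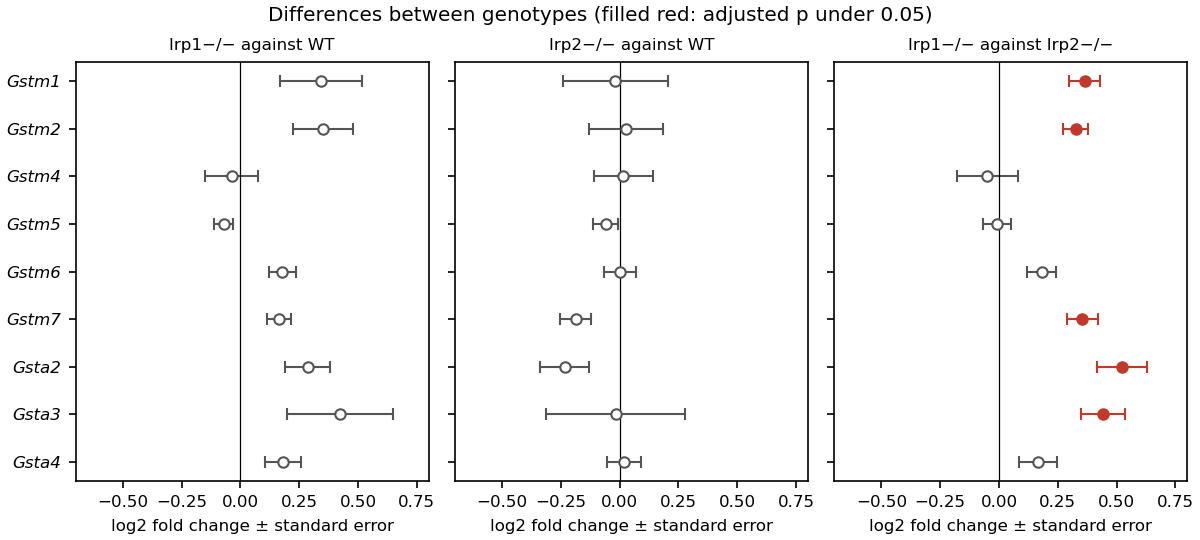
Log2 fold change (x axis) with its standard error for the 9 tested genes in the 3 comparisons between genotypes (edgeR). Filled red points have an adjusted p under 0.05, and these are the 5 genes of the comparison of Irp1-/- with Irp2-/-, at 0.33 to 0.52.

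Summed over genes, the mu class without Gstm5 was 503 ± 97.7 CPM in WT (SD, n = 4), 628 ± 17.4 CPM in Irp1-/- (SD, n = 4) and 496 ± 47.6 CPM in Irp2-/- testes (SD, n = 3). The alpha class sum was 61.6 ± 9.74, 75.4 ± 5.07 and 60.3 ± 4.18 CPM. With Gstm5 included the mu class sum was 2070.0 ± 58.1, 2123 ± 92.7 and 1996 ± 105 CPM, and the ranges of the 3 genotypes overlapped. The share of Gstm5 in the summed level per kb was 73.3% ± 1.30 in Irp1-/- (SD, n = 4) and 77.6% ± 3.08 in Irp2-/- testes (SD, n = 3).

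Across the 11 samples, some members at different loci varied together. As a description over samples that share libraries and genotypes, Pearson's r of log2 CPM was 0.98 between Gstm1 and Gstm2 (Spearman's rho 0.93). These genes are neighbours and share some 50-base words. Between Gstm1 on chromosome 3 and Gsta3 on chromosome 1, which share no 50-base word, r was 0.97 (rho 0.84). Gstm7 and Gsta2 had r = 0.88 (rho 0.94). Gstm4 was negatively related to all 8 other tested members, with r between -0.47 (Gsta3) and -0.11 (Gstm5). The dominant member Gstm5 was not like its neighbours, with r = -0.51 (rho -0.46) to Gstm1 and 0.02 (rho -0.07) to Gstm7.

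The 5 of 16405 other genes most like Gstm5 over the 11 samples were 4933415F23Rik (r = 0.98), Ubxn6 (0.96), 1700018C11Rik (0.96), Gpx4 (0.96), which encodes the peroxidase of lipid hydroperoxides, and Fam71f2 (0.96). Those most like Gsta4 were Pfdn1 (0.95), Slc41a2 (0.94), Chga (0.94), Rgcc (0.93) and Gstp1 (0.93), the pi class transferase. For Gstm1 and Gsta3, which were added after their values were seen, the nearest genes outside the 10 were Idh1 (r = 0.97), the cytosolic NADP isocitrate dehydrogenase, for Gstm1, and Ugt1a6a (0.96) and Mgst1 (0.96), a glucuronosyltransferase and a microsomal glutathione transferase, for Gsta3.

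The WT samples with low Gstm1, Gstm2 and Gsta3 were also low in several markers of Leydig cells, the androgen-producing cells between the tubules. Cyp17a1, which makes androgen precursors, was 95.4, 91.8, 238 and 191 CPM in WT replicates 1 to 4. Cyp11a1, which cleaves cholesterol, was 34.5, 29.0, 84.3 and 75.3 CPM. Insl3, a peptide hormone of the same cells, was 489, 484, 519 and 495 CPM, so its gap was small. The gap did not divide steroid enzymes from other markers. Lhcgr was 2.40, 1.87, 5.17 and 4.69 CPM, and Nr5a1 was 24.6, 24.9, 33.6 and 32.7 CPM. The enzyme genes Hsd17b3 and Hsd3b1 were 13.2, 14.3, 17.1 and 15.8 CPM, and 29.8, 35.9, 37.1 and 42.6 CPM. As a description over the 11 samples, r to the 10 Leydig markers ranged from 0.59 to 0.91 for Gstm1, from 0.55 to 0.86 for Gstm2 and from 0.57 to 0.85 for Gsta3. Spearman's rho for these genes went lower, from 0.39 to 0.93, from 0.29 to 0.84 and from 0.48 to 0.84, lowest for Lhcgr each time. Pearson's r ranged more widely for Gstm7, from 0.30 (Lhcgr) to 0.91 (Insl3), and for Gsta2, from 0.14 (Lhcgr) to 0.87 (Hsd3b1). For Gstm6 and Gsta4 it ranged from 0.37 to 0.82 and from 0.34 to 0.69. Gstm4 and Gstm5 were negatively related to all 10 markers, at -0.59 to -0.14 and -0.53 to -0.10.

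Most Leydig and Sertoli markers had a higher fitted level in Irp1-/- testes, and a minority passed the test, beside 1.02% of all genes called against WT and 4.69% between the knockouts. At an unadjusted p under 0.05 (edgeR, either direction), the background was 1941 of 16002 genes in Irp1-/- against WT. It was 1522 of 16154 genes in Irp2-/- against WT and 2661 of 16281 genes in Irp1-/- against Irp2-/-. Among 10 Leydig markers, 9 had a higher fitted level in Irp1-/- than in WT testes (median log2 fold change 0.38, 1 called, Hsd17b3) and 10 had a higher one than in Irp2-/- testes (median 0.23, 3 called, Hsd3b1, Nr5a1 and Insl3). At an unadjusted p under 0.05 (edgeR), 3 of these 10 were higher against WT, beside 6.69% of all genes. Against Irp2-/-, 3 were higher, beside 2661 of 16281 genes in either direction. Their summed level ranged from 803 to 1148 CPM in WT, from 1072 to 1274 CPM in Irp1-/- and from 831 to 1090.3 CPM in Irp2-/- testes, and none of the 10 was at 0. Of 13 Sertoli markers, 13 had a higher fitted level in Irp1-/- than in WT (median 0.12, 1 called, Clu) and 12 than in Irp2-/- testes (median 0.15, 3 called, Amh, Fshr and Rhox5). Amh and Fshr were low, at most 2.94 and 2.78 CPM in Irp1-/- and 1.37 and 1.53 CPM in Irp2-/- testes. At an unadjusted p under 0.05 (edgeR), 8 of the 13 Sertoli markers were higher against WT, beside 6.69% of all genes. Against Irp2-/-, 8 were higher, beside 2661 of 16281 genes in either direction. Their summed level ranged from 1541 to 1633 CPM in WT, from 1666 to 1898 CPM in Irp1-/- and from 1482 to 1703 CPM in Irp2-/- testes. In Irp2-/- against WT testes, 6 of 10 Leydig and 6 of 13 Sertoli markers had a higher fitted level (medians 0.047 and -0.028), and none was called by edgeR, with 1 and 0 at an unadjusted p under 0.05. The summed elongating spermatid markers were 25367 to 26441 CPM in WT, 23851 to 27302 in Irp1-/- and 21799 to 25961 in Irp2-/- testes, and no gene of that list was called in any of the 3 comparisons by edgeR, with 3, 1 and 0 of 10 at an unadjusted p under 0.05. In the other marker lists, the spermatogonial gene Sall4 was lower and the smooth muscle actin gene Actg2 was higher in Irp1-/- than in Irp2-/- testes (log2 fold changes -0.58 and 0.19, edgeR adjusted p = 0.0316 and 0.0351). The summed spermatocyte markers were lower in all Irp1-/- samples, at 1669 to 1698 CPM, than in WT, at 1749 to 1793 CPM, and were 1701 to 1769.9 CPM in Irp2-/- testes. Of those 10 markers, 9 had a lower fitted level in Irp1-/- than in WT (median log2 fold change -0.076), and none was called by edgeR, with 3 at an unadjusted p under 0.05. The summed blood markers were 37.5 to 56.8 CPM in Irp1-/-, 30.4 to 37.3 CPM in WT and 24.7 to 38.3 CPM in Irp2-/- testes, and none of the 3 tested in Irp1-/- against WT was called or had an unadjusted p under 0.05 (median 0.74, with Hbb-bs at 0 in all samples). Of 10 round spermatid markers, 9 had a higher fitted level in Irp1-/- than in WT (median 0.037) and 10 had a higher one than in Irp2-/- testes (median 0.095), with none called by edgeR and 2 and 1 at an unadjusted p under 0.05. The part of these cell types in the transferase differences was not tested.

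**Figure D5:**
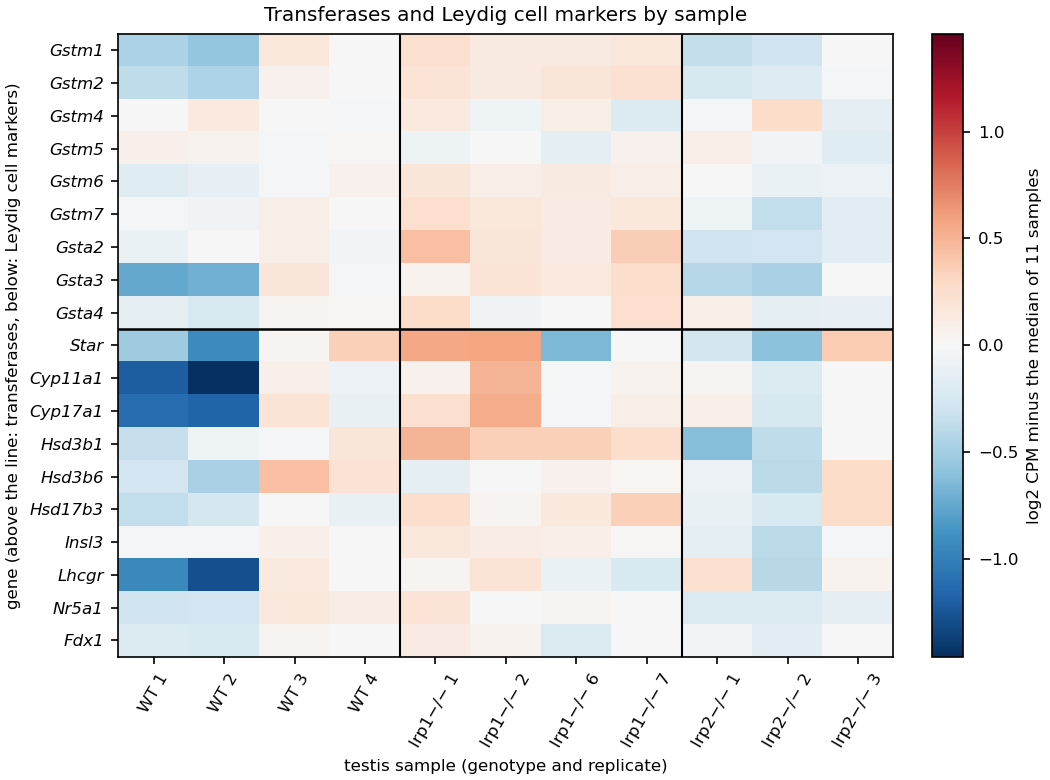
Log2 CPM minus the median of the 11 samples (colour scale) for the 9 tested genes (above the line) and 10 Leydig cell markers (below), with samples in columns by genotype. WT replicates 1 and 2 are low for Gstm1, Gstm2 and Gsta3 and for Cyp11a1, Cyp17a1 and Lhcgr, the luteinizing hormone receptor gene, while Insl3 varies little in WT.

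The wider glutathione pathway was read from lists of related genes, beside the shares of all genes called, 1.02% in Irp1-/- against WT, 1.21% in Irp2-/- against WT and 4.69% in Irp1-/- against Irp2-/-. In the same order, 1941 of 16002, 1522 of 16154 and 2661 of 16281 genes had an unadjusted p under 0.05 (edgeR). These are the background for the unadjusted counts below. Of 16 glutathione synthesis and recycling genes, 15 were tested and none was called in any comparison by edgeR, with 4, 0 and 2 at an unadjusted p under 0.05 in Irp1-/- against WT, Irp2-/- against WT and Irp1-/- against Irp2-/-. Among 16 tested transferases of other classes, none was called against WT by edgeR (5 and 3 at an unadjusted p under 0.05 in Irp1-/- and Irp2-/-), and 3 were higher in Irp1-/- than in Irp2-/- testes. They were the kappa class gene Gstk1 (log2 fold change 0.70, standard error 0.16, edgeR adjusted p = 0.0121), the prostaglandin E synthase gene Ptges (0.78, standard error 0.22, adjusted p = 0.0441) and Mgst1 (0.25, standard error 0.071, adjusted p = 0.0466). Gstk1 and Ptges were low, with means of 3.69 and 2.51 CPM in Irp1-/- and 2.26 and 1.48 CPM in Irp2-/- testes.

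Of 10 tested peroxidases and glutaredoxins, Gpx1, the cytosolic glutathione peroxidase, was higher in Irp1-/- than in WT testes (log2 fold change 0.42, standard error 0.10, edgeR adjusted p = 0.0473). Gpx3, the secreted form, and Gpx6 were higher in Irp1-/- than in Irp2-/- testes, by 1.02 (standard error 0.15, edgeR adjusted p = 2.4e-04) and 0.41 (standard error 0.098, edgeR adjusted p = 0.0150) on the log2 scale. Gpx3 was low, at most 7.24 CPM in Irp1-/- and 3.63 CPM in Irp2-/- testes.

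Of 18 regulators and targets of NRF2, a transcription factor of the response to electrophiles, the epoxide hydrolase gene Ephx1 alone was called in the 3 comparisons, higher in Irp1-/- than in Irp2-/- testes (log2 fold change 0.47, standard error 0.072, edgeR adjusted p = 4.5e-04). The median of that list was 0.048 against WT for Irp1-/- and 0.034 for Irp2-/-. Among 7 exporters of conjugates, Abcc3 was lower in Irp2-/- than in WT testes (log2 fold change -0.31, standard error 0.066, edgeR adjusted p = 0.0137). Among 11 tested enzymes of lipid aldehydes, 10 had a higher fitted level in Irp1-/- than in WT testes (median log2 fold change 0.11). Against WT none was called by edgeR, and 3 had an unadjusted p under 0.05, beside 1941 of 16002 genes. A higher fitted level in Irp1-/- than in Irp2-/- testes was found for 9 of the 11 (median 0.077). Their summed level was 537 to 554 CPM in Irp1-/-, above the 428 to 533 CPM in WT and the 469 to 531 CPM in Irp2-/- testes. The called gene, Aldh3a1, went the other way and was lower in Irp1-/- than in Irp2-/- testes (log2 fold change -1.03, standard error 0.22, edgeR adjusted p = 0.00776), at 1.97 ± 0.218 CPM (SD, n = 4) against 4.04 ± 1.52 CPM (SD, n = 3).

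Because Gstm7, Gsta3, Gstm2 and Gsta2 were among the genes that differed together, a promoter of each and of the dominant member Gstm5 is shown. A promoter here is 250 bases before to 50 after a RefSeq transcription start (GRCm38.p6), and 9 of the 10 genes had one. Capitals mark the core of the antioxidant response element, TGACNNNGC, searched on both strands. The positions are chr3:107931565-107931864 (Gstm7, reverse strand), chr1:21240335-21240634 (Gsta3, forward), chr3:107895604-107895903 (Gstm5, forward), chr3:107986371-107986670 (Gstm2, reverse) and chr9:78347096-78347395 (Gsta2, reverse).
Gstm7: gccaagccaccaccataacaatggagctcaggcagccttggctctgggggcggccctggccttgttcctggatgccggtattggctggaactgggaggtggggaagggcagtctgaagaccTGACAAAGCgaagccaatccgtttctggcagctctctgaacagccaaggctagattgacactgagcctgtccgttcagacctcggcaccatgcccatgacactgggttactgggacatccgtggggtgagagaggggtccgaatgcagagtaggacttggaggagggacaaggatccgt
Gsta3: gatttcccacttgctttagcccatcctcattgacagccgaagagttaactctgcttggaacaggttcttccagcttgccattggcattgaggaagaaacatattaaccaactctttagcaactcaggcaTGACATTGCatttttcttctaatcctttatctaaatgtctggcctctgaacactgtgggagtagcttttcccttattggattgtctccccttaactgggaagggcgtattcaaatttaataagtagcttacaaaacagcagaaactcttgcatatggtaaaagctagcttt
Gstm5: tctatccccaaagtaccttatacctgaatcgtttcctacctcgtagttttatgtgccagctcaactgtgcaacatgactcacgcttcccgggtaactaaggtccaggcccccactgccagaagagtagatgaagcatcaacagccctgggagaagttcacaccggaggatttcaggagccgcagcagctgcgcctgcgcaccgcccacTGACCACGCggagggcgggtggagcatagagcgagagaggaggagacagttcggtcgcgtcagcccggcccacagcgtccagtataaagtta
Gstm2: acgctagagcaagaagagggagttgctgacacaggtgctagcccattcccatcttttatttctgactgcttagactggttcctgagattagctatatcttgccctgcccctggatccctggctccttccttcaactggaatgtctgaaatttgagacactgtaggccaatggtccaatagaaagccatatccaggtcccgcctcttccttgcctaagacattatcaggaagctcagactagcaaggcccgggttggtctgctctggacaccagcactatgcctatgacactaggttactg
Gsta2: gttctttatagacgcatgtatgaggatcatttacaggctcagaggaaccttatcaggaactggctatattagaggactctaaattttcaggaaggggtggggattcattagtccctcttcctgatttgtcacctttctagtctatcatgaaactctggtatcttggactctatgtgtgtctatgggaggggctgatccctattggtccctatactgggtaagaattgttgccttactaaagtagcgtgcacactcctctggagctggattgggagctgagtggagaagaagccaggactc

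In the promoters shown, the core was found at -129 from the start in Gstm7, at -121 in Gsta3 and at -42 in Gstm5. It occurs in 12.4% of 32851 promoters of the same length. The Gsta2 promoter, the only one for that gene, starts inside the gene and does not reach its annotated 5′ end (78355788), which was not searched. The start used for the Gstm7 promoter shown also lies inside the gene. Another Gstm7 promoter, at chr3:107931768-107932067, covers the annotated 5′ end of the gene (107931817) and held no match. The Gstm7 core lies downstream of that end. Of the 3 genes with a core in a promoter, Gstm7 and Gsta3 were called between the knockouts and Gstm5 was not. Gstm1, Gstm2 and Gsta2, which were also called, held no match in any of their promoters. The letters CAAGGTCA, a binding site of NR5A1, were found in no promoter of the 9 genes. They occur in 1.56% of all promoters and in a promoter of 1.76% of genes.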

How the data were processed

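Poly(A) RNA from whole testes of 11 mice (4 WT, 4 Irp1-/-, 3 Irp2-/-) was analysed. The authors deposited counts of reads per gene that had not been normalized. They were made from paired-end reads of 50 bases with an nf-core workflow and the mm10 genome. The program that counted reads is not given in the sources used here, so reads shared by similar genes may have been split, dropped or assigned by estimate. Genotypes were taken from the labels. The name of Irp1-/- replicate 6 has an R where all others have an L, and what these letters stand for is not stated. Nothing in the labels says how mice relate across samples, so p-values measure the spread between these samples.

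The test was edgeR 4.0.16 under R 4.3.3 (TMM, filterByExpr, robust quasi-likelihood test, Benjamini-Hochberg adjustment over all genes tested, call at an adjusted p under 0.05), each time on the 2 genotypes in question only. The alternatives were DESeq2 1.42.0, RLE normalization, other count filters, a fit of all 11 samples, a replicate block and leaving out each replicate. Levels are CPM on TMM library sizes, and correlations use log2 CPM with a prior count of 2. Total counts lay between 15902473 and 22451417, and floors of 3 counts cover counting error only. In counts simulated for the comparison of Irp1-/- with Irp2-/- over 16135 genes, 90 of 100 genes changed 1.5-fold and 100 of 100 changed 2-fold were recovered, and 5.94% of calls were false. The changed genes were drawn from well-counted genes, and the spread was set by expression level and not by gene. Fold changes of the members were smaller than those simulated, so this recovery does not give the power for them.

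Named genes were the 10 members, Aco1 and Ireb2, up to 4 called genes from each of the other lists, and the 5 genes most like the most abundant member of each class. Cyp17a1, Cyp11a1, Lhcgr, Lcn5, Lcn10 and the genes most like Gstm1 and Gsta3 were named after their values were seen. The members and the 19 gene lists were chosen with earlier results of these data known. Gene positions and lengths came from GENCODE M21, promoters from RefSeq. No per-sample column was left out.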

Additional observations from a re-analysis of the deposited data

Results flagged for a closer look

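Deletion and mouse line cannot be told apart between the knockouts. Irp1-/- testes differed from Irp2-/- testes in the direct test (edgeR, 4 against 3 samples) for 5 of the 9 tested genes. The difference was 0.36 on the log2 scale for Gstm1, 0.33 for Gstm2, 0.35 for Gstm7, 0.52 for Gsta2 and 0.44 for Gsta3, each higher in 4 of 4 Irp1-/- samples than in any Irp2-/- sample.

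Gstm4 in WT replicate 2 was 6.72 CPM, apart from the other 3 WT samples at 6.01 to 6.09 CPM. That gap was 0.89 of the range of the group. The spacing was checked in 20 groups of 4 samples, and chance flags about 1 in 20. The counts behind these values were 106 to 109 in all 4 WT samples.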

How the results depend on the processing

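Of the alternatives, the single fit of all 11 samples moved the count of members called between Irp1-/- and Irp2-/- to 2, from 5. The replicate block moved that between Irp1-/- and WT to 6 of 9 and the count of all called genes to 439, from 164. Replicate numbers do not pair the samples (correlation of same-numbered deviations -0.01 to 0.0778), and the block left 132 genes and 0 members in Irp2-/- against WT and 852 genes and 5 members in Irp1-/- against Irp2-/-. With coding length, Gstm5 made up 73.1% of the summed level per kb in WT.

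Leaving out each replicate gave 55 to 216 called genes in Irp1-/- against WT, 118 to 223 in Irp2-/- against WT and 414 to 763 in Irp1-/- against Irp2-/-. Members called were 0 to 1 in Irp2-/- against WT and 4 to 5 in Irp1-/- against Irp2-/-. The first count fell to 55 without Irp1-/- replicate 1, 102 without Irp1-/- replicate 6, 84 without WT replicate 2 and 106 without WT replicate 4, the next to 118 without Irp2-/- replicate 2, and the last to 471 without Irp1-/- replicate 1 and 414 without Irp2-/- replicate 2.

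Changes of sign were limited to log2 fold changes near 0. In Irp2-/- against WT the replicate block gave 0.077 for Gstm1, -0.007 for Gstm4 and 0.113 for Gsta3, and Gstm6 was -0.002 in the fit of all samples, -0.001 with at least 10 counts per sample, -0.005 in DESeq2 and -0.004 with RLE. Leaving out each replicate there gave -0.135 to 0.114 for Gstm1, -0.057 to 0.111 for Gstm2, -0.11 to 0.095 for Gstm4, -0.135 to 0.002 for Gstm5, -0.039 to 0.044 for Gstm6, -0.179 to 0.164 for Gsta3 and -0.059 to 0.06 for Gsta4. It gave -0.088 to 0.02 for Gstm4 in Irp1-/- against WT, and -0.129 to 0.076 for Gstm4 and -0.071 to 0.067 for Gstm5 in Irp1-/- against Irp2-/-. The cause was not tested. Gstm4 had 84 to 144 counts per sample, and Gstm3 had at most 2 and was not tested.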
